A study of Mus musculus with 6 samples.

Results

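General genes of neural progenitors were followed in aggregates of embryonic stem cells treated with retinoic acid, with and without stimulation of the hedgehog pathway. The set held 10 such genes out of the 18193 genes that could be named on the array. They comprise 4 transcription factors of the SoxB group (Sox1, Sox2, Sox3 and Sox21) and 6 structural, binding or surface proteins (Nes, Fabp7, Prom1, Msi1, Vim and Slc1a3). Members were taken by symbol alone. Every probe set, the group of short probes that reads 1 transcript, was included where the platform annotation gave it 1 of these symbols and no other, which made 24 probe sets.

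The cells were mouse embryonic stem cells of 1 line that expressed Gli1-FLAG, a tagged hedgehog transcription factor, from the Rosa26 promoter. Every culture, controls included, carried this transgene. Aggregates were kept in suspension for 2 days and then treated for 3 days with 500 nM all-trans retinoic acid alone (RA) or with 500 nM all-trans retinoic acid plus 50 nM Ag1.3, an agonist of the hedgehog transducer Smoothened (RA with Ag1.3). Each group had 3 cultures grown as parallel pairs, and RNA of each was read on 1 Affymetrix array of whole-genome mouse probe sets, which gives a fluorescence intensity per probe set. Depth has no meaning for such arrays, and their number limits the precision.

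SoxB1 factors (Sox1, Sox2 and Sox3) are high-mobility-group proteins that bind DNA with partner factors and hold cells of the neural tube in a progenitor state. Sox21, of the SoxB2 group, acts mainly as a repressor and favours the step from progenitor to neuron. Nestin and vimentin form the intermediate filaments of neuroepithelial cells, and the fatty acid binding protein Fabp7 and the glutamate transporter Slc1a3 (GLAST) appear as these cells become radial glia. Hedgehog signalling sets which ventral subtype a progenitor becomes and supports progenitor division. The comparison therefore asks whether genes common to progenitors of all positions differed when the pathway was stimulated.

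Of the 10 genes, 0 passed the test for a difference with Ag1.3, against 1.41% of all genes, 1.08% higher and 0.324% lower. The test was limma's moderated linear model of log2(intensity + 16) with the culture pair as a block. The Benjamini-Hochberg adjustment covered all 18193 genes, at a threshold of 0.05. Without adjustment 4 of the 10 were under 0.05, against 14.9% of all genes. Of these, Slc1a3, Nes and Fabp7 read higher (7.25% of all genes) and Sox21 lower (7.68%). The estimates were small. All 10 had a 95% interval inside a 2-fold change in either direction, which held for 98.4% of all genes, and 9, all but Fabp7, had one inside a 1.5-fold change, which held for 89.6%. The estimate with the largest size was that of Fabp7, 1.31-fold higher, and that with the smallest was that of Vim, 1.01-fold lower. In whole aggregates, fewer cells of a type and less RNA per cell cannot be told apart, so each value is an average over all cells of a culture.

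**Figure D1:**
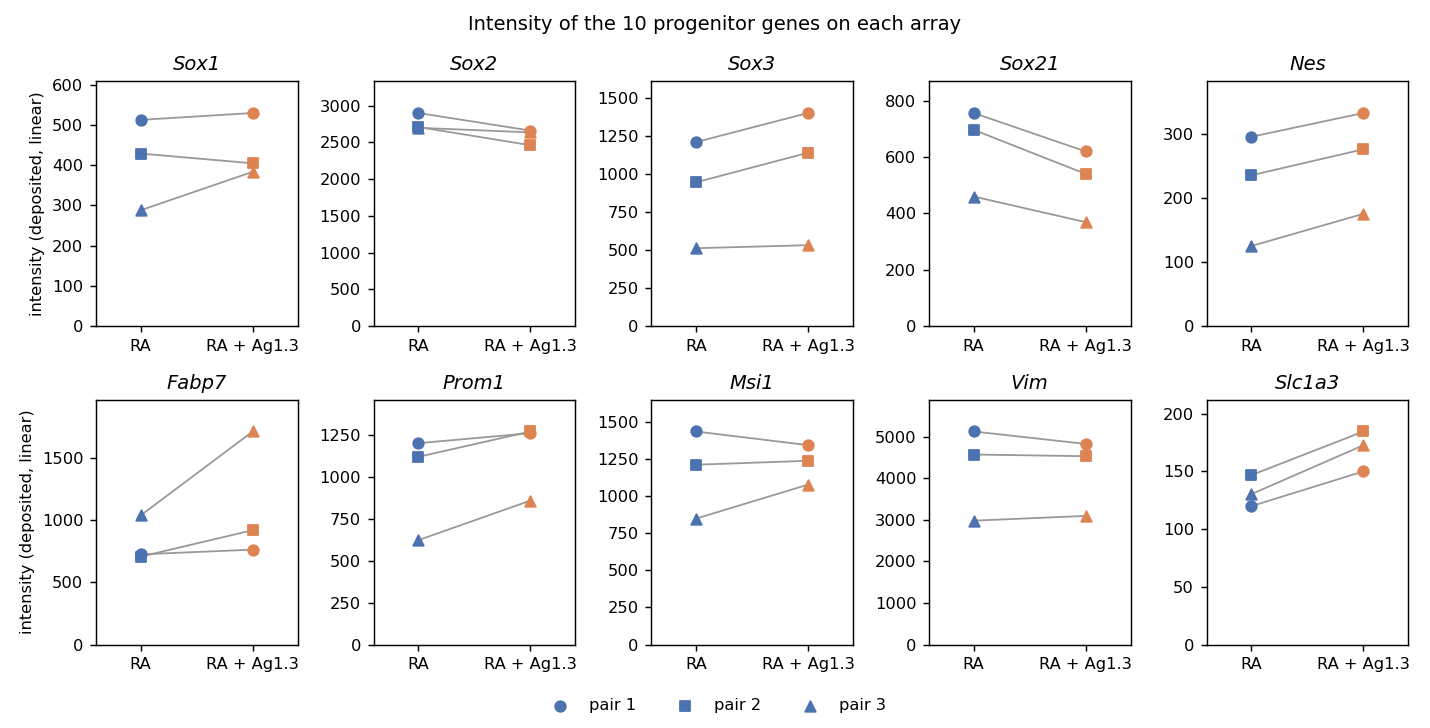
Deposited intensity (linear axis from 0) of each gene's brightest probe set on every array, with RA cultures in blue, RA with Ag1.3 cultures in orange, and a line joining the 2 cultures of a pair. Pair 3, shown by triangles, lies below the other pairs in both groups for 7 of the 10 genes, while the lines within pairs are short for most genes.

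Sox1, among the earliest factors of neural commitment, read 512, 429 and 288 in RA cultures 1 to 3 and 529, 404 and 383 in the paired Ag1.3 cultures. The groups overlapped, and pairs 1 and 3 read higher with Ag1.3 while pair 2 read lower. The log2 fold change was 0.12 with SE 0.11 and a 95% interval of -0.16 to 0.40 (adjusted p = 0.697 in limma). Its second probe set was dim, at 23.7 to 41.8 in RA and 30.4 to 49.8 with Ag1.3, and gave 0.18 on the log2 scale.

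Sox2, which neural progenitors share with pluripotent cells, read 2900.4, 2709 and 2699 in RA and 2661, 2462 and 2636 with Ag1.3. Every Ag1.3 culture read below every RA culture, but the distance was small. The log2 estimate was -0.10 (SE 0.075, 95% interval -0.29 to 0.09, adjusted p = 0.623 in limma). Groups did not overlap in 2 of the 10 members, Sox2 and Slc1a3, against 11.8% of all genes.

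Sox3 read 1211, 946 and 512 in RA and 1402, 1141 and 532 with Ag1.3. Each pair read higher with Ag1.3, yet the levels of the pairs spanned more than the groups did, so that the groups overlapped widely. The log2 estimate was 0.18, its SE 0.08 and its adjusted p 0.404 in limma, with a 95% interval of -0.03 to 0.38. The other Sox3 probe set read 238, 244 and 149 in RA and 277, 231 and 143 in the paired cultures. It was higher with Ag1.3 in pair 1 alone, and its log2 estimate was 0.02.

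Sox21 read 757, 697 and 459.9 in RA and 619.8, 540.1 and 369 with Ag1.3. It was lower with Ag1.3 in 3 of 3 pairs, by 0.28, 0.36 and 0.31 on the log2 scale, although the groups overlapped because pair 3 was low under both treatments. The log2 fold change was -0.32, a 1.24-fold lower level, with SE 0.073 and a 95% interval of -0.50 to -0.13. The unadjusted p was 0.0063 and the adjusted p 0.136 in limma, so Sox21 did not pass. Its other probe set read 474, 378 and 189.6 in RA and 352, 279.5 and 129 with Ag1.3, which is 1.36-fold lower and again lower in every pair. In the fit over all 45037 probe sets that are not controls, this second probe set had an unadjusted p of 0.0020 and an adjusted p of 0.131.

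Sox21 thus had the lowest estimate of the SoxB genes in each of the 3 pairs. Its change with Ag1.3 lay below that of Sox3 by 0.49, 0.62 and 0.36 on the log2 scale in pairs 1 to 3, below that of Sox1 by 0.33, 0.28 and 0.70, and below that of Sox2 by 0.16, 0.22 and 0.27. An exact two-sided sign-flip permutation test over the 3 pairs gave p = 0.25 for each of these 3 differences, unadjusted, and 0.25 is the smallest p that 3 pairs allow. These contrasts were chosen after the values had been seen. Sox21 was past the adjusted threshold in 5 of 14 other settings of the analysis, and its estimate stayed between -0.51 and -0.29 in all 14. It passed with a pseudocount of 64, among brighter genes, with either intensity-dependent moderation of the variance and with arrays centred on spikes, described below. Without the block for pairs its unadjusted p was 0.236 and its adjusted p 0.866 in limma. In the 5 settings where Sox21 passed, 819 to 3009 genes did, against 256 in the test above. The setting with brighter genes alone tested 11441 genes and not all 18193. Centring on spikes also moved the median of all genes to -0.20.

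Among the filament genes, Nes, which encodes nestin, read 296, 236 and 125 in RA and 333, 276 and 175 with Ag1.3. It read higher with Ag1.3 in each pair, and the groups overlapped. The log2 fold change was 0.27 with SE 0.09 and a 95% interval of 0.05 to 0.50 (unadjusted p = 0.024, adjusted p = 0.244 in limma). The 3 Nes probe sets did not give the same picture. A second one read 156, 192 and 176 in RA and 173, 171 and 175 with Ag1.3, with a log2 fold change of -0.01 and no low value in pair 3, and the third was dim, at 13.0 to 35.95 over all arrays.

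Vim, which encodes vimentin, read 5131, 4577 and 2983 in RA and 4832, 4536 and 3098 with Ag1.3. The values followed the pair and hardly the treatment, with a log2 fold change of -0.01 and a 95% interval of -0.21 to 0.18 (adjusted p = 0.953 in limma). Its other probe sets, both bright, gave 0.05 and 0.03 on the log2 scale. All 3 Vim probe sets read lowest in pair 3 within each group.

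Fabp7, a lipid carrier of radial glia, read 724, 705 and 1037 in RA and 762, 918 and 1710.3 with Ag1.3. It was higher with Ag1.3 in each pair, by 0.07, 0.37 and 0.71 on the log2 scale, and the groups overlapped. The mean was 822 ± 186 in RA and 1130 ± 509 with Ag1.3 (SD, n = 3 each), and the log2 fold change 0.39 with SE 0.13 and a 95% interval of 0.05 to 0.72. Its unadjusted p was 0.031 and its adjusted p 0.270 in limma. Without pair 3 the log2 fold change was 0.22 with adjusted p = 0.409, and over all 14 other settings it ran from 0.19 to 0.54 without passing in any.

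Slc1a3, the glutamate and aspartate transporter of radial glia and astrocytes, read 119.9, 147 and 130.3 in RA and 149.95, 185 and 173 with Ag1.3. Every Ag1.3 culture read above every RA culture, and the increases in pairs 1 to 3, at 0.29, 0.30 and 0.37 on the log2 scale, were close to each other. The mean was 132 ± 13.5 in RA and 169 ± 17.6 with Ag1.3 (SD, n = 3 each), 1.25-fold higher on the log2(intensity + 16) scale, with a 95% interval of 0.13 to 0.50 on the log2 scale. The unadjusted p of 0.0061 was the smallest among the 10 genes, and the adjusted p of 0.133 did not pass in limma. Slc1a3 passed in 3 of 14 other settings, with estimates of 0.13 to 0.35 over the 14. In the 3 where it passed, 819 to 1208 genes did, against 256 in the test above. The setting with brighter genes alone tested 11441 genes, of which 952 passed. In the fits over all probe sets, this probe set of Slc1a3 passed in 0 of 12 other settings.

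The array has 6 probe sets for Slc1a3. The second brightest read 104.7, 112 and 97.5 in RA and 124, 136 and 129.8 with Ag1.3, with no overlap of the groups, a log2 fold change of 0.27 and an unadjusted p of 0.0198. The next 2 in brightness gave 0.25 and 0.20, the first of them higher in 3 of 3 pairs and the second in 2. The remaining 2 gave -0.08 and -0.03, and they read between 30.2 and 41.4 and between 11.4 and 22.1 over all arrays. Control probe sets for bacterial Trp genes, which had no matching spike in the samples, read 4.02 to 20.7, so the dimmest of these Slc1a3 probe sets lay at or near background.

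Prom1, the membrane glycoprotein prominin 1 (CD133), sits on apical protrusions of neuroepithelial cells. It read 1199, 1117 and 621 in RA and 1258, 1268 and 857 in the paired Ag1.3 cultures. Each pair was higher with Ag1.3, and the groups overlapped. The log2 fold change was 0.23 with SE 0.10 and a 95% interval of -0.02 to 0.48 (adjusted p = 0.363 in limma), and without pair 3 the estimate was 0.12. Prom1 has 1 probe set on the array.

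Msi1, the RNA-binding protein Musashi 1, read 1436, 1212 and 849 in RA and 1344, 1239 and 1078 with Ag1.3. Pair 1 read lower with Ag1.3 and pairs 2 and 3 higher, giving a log2 fold change of 0.09 with a 95% interval of -0.17 to 0.36 (adjusted p = 0.758 in limma). Its second probe set read 199, 116 and 86.6 in RA and 155, 106 and 84.0 with Ag1.3, lower in 3 of 3 pairs with a log2 fold change of -0.16. The third lay at background, at 1.0 to 13.4.

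Counted over probe sets, 0 of the 24 passed limma's test over all 45037, where 0.515% passed, 0.426% higher and 0.0888% lower. Before adjustment 6 were under 0.05, against 11.6% of all probe sets. Those lower were both probe sets of Sox21 (6% of all), and those higher were 1 each of Nes and Fabp7 and 2 of Slc1a3 (5.65% of all). Groups did not overlap in 3 of the 24, against 11.2%. Values were higher in all 3 pairs for 8, against 15.5%, and lower in all 3 for 4, against 17.7%, so 12 ran 1 way in all pairs, against 33.2%. Probe sets of a gene share its RNA and are not replicates. At the level of genes, 5 of the 10 read higher in all 3 pairs (17.2% of all genes) and 2 read lower in all 3 (19.5%), so 7 ran 1 way, against 36.7%.

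**Figure D2:**
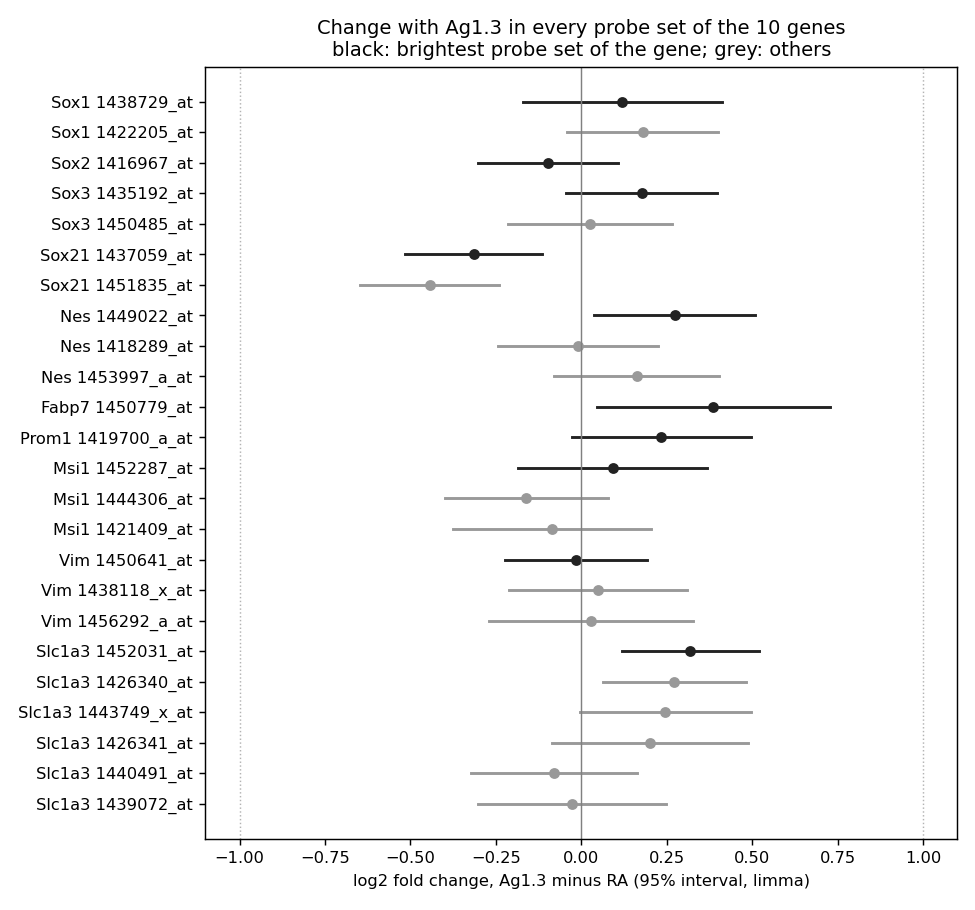
Log2 fold change, Ag1.3 minus RA, of the 24 probe sets with its 95% interval from the limma fit over all probe sets, with the brightest probe set of each gene in black and the others in grey. Both Sox21 probe sets lie below 0 with intervals that do not reach it, 2 of the 6 Slc1a3 probe sets lie above 0 in the same way, and no interval reaches the dotted lines at a 2-fold change.

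Promoter windows were taken from RefSeq sequences of GRCm38.p6, which hold 250 bases before and 50 after a gene's start, and 8 of the 10 genes matched. The 200 bases before the start are shown for Sox21 and Slc1a3, since these genes had the smallest p-values and opposite signs. Sox21 lies on the minus strand at chr14:118237031-118237230 and Slc1a3 on the minus strand at chr15:8710808-8711007, both read 5′ to 3′ along the gene.
Sox21: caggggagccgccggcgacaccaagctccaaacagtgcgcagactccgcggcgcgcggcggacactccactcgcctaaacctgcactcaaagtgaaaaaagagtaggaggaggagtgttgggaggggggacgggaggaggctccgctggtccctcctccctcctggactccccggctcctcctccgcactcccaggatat
Slc1a3: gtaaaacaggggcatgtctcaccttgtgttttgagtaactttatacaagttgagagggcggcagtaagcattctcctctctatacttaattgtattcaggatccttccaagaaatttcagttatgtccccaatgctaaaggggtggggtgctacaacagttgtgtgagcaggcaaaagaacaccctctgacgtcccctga
The Sox21 stretch had 65.5% G and C and the Slc1a3 stretch 45.0%. The consensus site of Gli factors, GACCACCCA, was searched on both strands and was in 0 of the 9 windows of the members and in 0.253% of all 32851 windows. That says only that these letters are not in these windows.

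The letters ATGCAAA, most of the octamer site of POU factors that pair with Sox2 in progenitors and stem cells, were searched in the same way on both strands. They were in 2 of the 9 windows of the members, those of Sox1 and Sox2, and in 4.63% of all windows. Shown for each are 30 bases with the match in capitals, on the plus strand, at chr8:12395526-12395555 for Sox1 and chr3:34649885-34649914 for Sox2.
Sox1: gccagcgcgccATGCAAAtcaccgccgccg
Sox2: cgccccctttcATGCAAAaccctctggcga
Relative to the start, the Sox1 stretch runs from +8 to +37 and the Sox2 stretch from -110 to -81. A match describes the sequence and is not evidence of binding.

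Most members varied more between pairs of parallel cultures than between treatments. Of each gene's sum of squares over the 6 arrays on the log2 scale, the culture pair held a median of 82.5% over the 10 members, against a median of 49.1% over all genes and 54.8% over genes brighter than the median probe set. The treatment held a median of 9.73%, against 14.2% over all genes. A term for 3 pairs takes up on average a larger share than the treatment even without any effect. The shares over all genes are therefore the reference. The pair share was 99.1% for Vim, 96.9% for Sox3 and 89.0% for Nes. It was lowest for Slc1a3, at 31.6%, where the treatment held 67.6%, and for Sox2, at 38.4%, where the treatment held 50.5%.

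**Figure D3:**
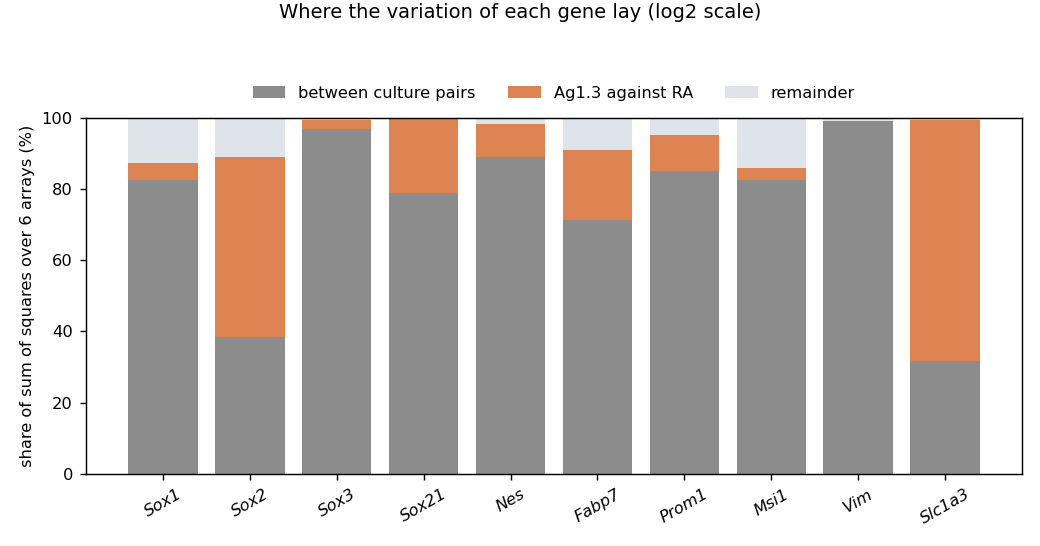
Share of each gene's sum of squares over the 6 arrays (percent, log2 scale) between culture pairs, between RA and Ag1.3, and in the remainder, 1 stacked bar per gene. The grey part, between pairs, takes over 70% in 8 of the 10 genes, and the orange part, the treatment, is above 50% in Sox2 and Slc1a3 alone.

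Pair 3 stood apart from the other pairs in most members. Sox3 was 2.06-fold lower in RA culture 3 than the mean of RA cultures 1 and 2, and 2.34-fold lower in Ag1.3 culture 3 than in its 2 group mates, on the log2(intensity + 16) scale. Nes, by its brightest probe set and not by its second, was 1.99-fold and 1.67-fold lower in the same comparisons. Prom1 was 1.84-fold and 1.47-fold lower, Vim 1.62-fold and 1.51-fold, and Sox21 1.56-fold and 1.55-fold. With Sox1 and Msi1, 7 of the 10 members lay below the mean of pairs 1 and 2 under both treatments. This held for 28.9% of all genes and for 34.2% of genes brighter than the median probe set. It was not particular to the members, since 15 of 20 other neural progenitor genes, listed below, did the same and 3 lay above in both groups. Fabp7 went the other way, as did 34.2% of all genes, and was 1.44-fold and 2.03-fold higher in pair 3, while Sox2 and Slc1a3 differed by at most 1.04-fold.

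Other cell type markers were listed for neurons, pluripotent and other cells, and some of these lists moved with the pairs as well. All 10 neuronal markers read lower in pair 3 than the mean of pairs 1 and 2 under both treatments, and all 8 markers of pluripotent cells read higher than that mean. The summed intensity of the pluripotent markers was 5367, 7790 and 8749 in RA cultures 1 to 3 and 3403, 5019 and 6748 in the Ag1.3 cultures. The summed intensity of 8 mesenchymal markers was 481, 666 and 752 in RA and 428, 592 and 842 with Ag1.3, highest in pair 3 in both groups. The 9 measured markers of dividing cells summed to 15753 to 16817 in RA and 15160 to 16041 with Ag1.3. In pair 3, 5 of these 9 lay below the mean of pairs 1 and 2 in both groups, and 4 lay above it. The counts below and above were 2 and 2 of 6 neural crest markers and 0 and 2 of 6 endothelial markers. They were 0 and 3 of 7 glial markers and 0 and 6 of 8 endoderm markers. The part of these other cells in the levels of the members was not tested.

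**Figure D4:**
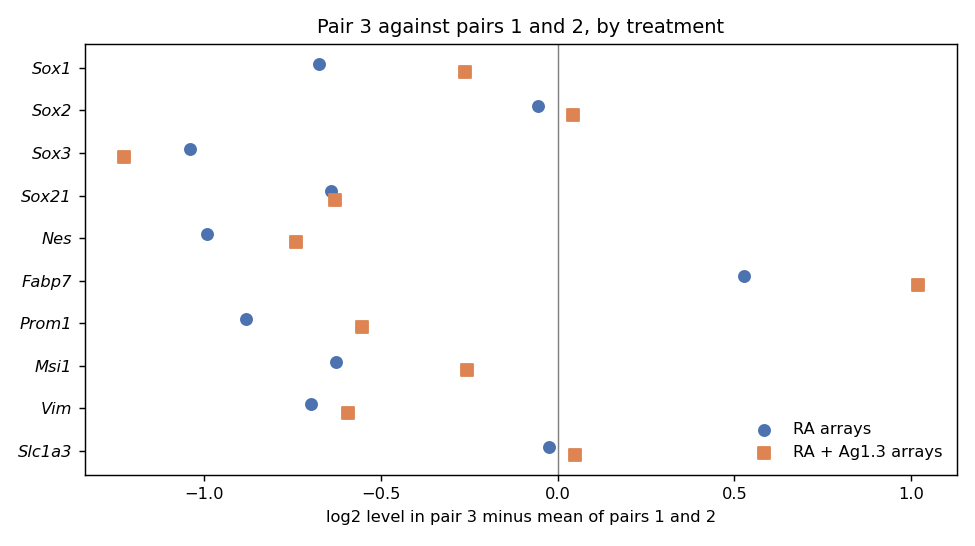
Log2 level of each member in pair 3 minus the mean of pairs 1 and 2, with RA arrays as blue circles and RA with Ag1.3 arrays as orange squares. Sox3 lies furthest to the left in both groups (-1.04 and -1.22), Fabp7 alone lies clearly to the right (0.53 and 1.02), and Sox2 and Slc1a3 lie near 0.

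The difference between RA and Ag1.3 was also most positive in pair 3 for 8 of the 10 members. This held for 46.1% of all genes and for 53.8% of genes brighter than the median probe set. In Prom1 it was 0.07, 0.18 and 0.45 on the log2 scale in pairs 1 to 3, in Sox1 0.05, -0.08 and 0.39, and in Msi1 -0.09, 0.03 and 0.34. Sox3 and Sox21 were the exceptions. Without pair 3, 0 of the 10 members passed in limma and 3 were under 0.05 before adjustment, and the estimates of Sox1 and Msi1 changed sign, to -0.02 and -0.03.

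Other genes of neural progenitors were listed beside the members. Of 20 such genes, 1 rose with Ag1.3 and 0 fell, with a median log2 fold change of 0.17, against -0.0071 over all genes. Estimates were above 0 for 14 and below it for 6. Before adjustment 9 were under 0.05, against 14.9% of all genes, and of these only Pax6 read lower. Notch1, the receptor that keeps progenitors from differentiating, went from 594 ± 155 to 942 ± 220 (SD, n = 3 each, adjusted p = 0.0364 in limma). It did not pass once any 1 of the pairs was left out, with adjusted p of 0.113 to 0.199, nor without the block for pairs (adjusted p = 0.590). Pax6, a patterning factor of neural progenitors named after its value was seen, had the next smallest p and ran the other way. It went from 615 ± 236 to 435.0 ± 168 (SD, n = 3 each), a log2 difference of -0.48 with adjusted p = 0.0531 in limma, lower in 3 of 3 pairs, and it passed in 7 of 14 other settings. With arrays centred on spikes the median of the 20 genes was -0.02, with 1 higher and 2 lower. The members had a median of 0.01 for the 4 SoxB genes and 0.25 for the other 6.

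Markers of neurons and of pluripotent cells had larger median differences with Ag1.3 than the members, and markers of dividing cells did not. These contrasts between lists were not tested. Among 10 neuronal markers 7 rose and 0 fell, with a median log2 fold change of 1.06. Of these markers 3 passed whichever pair was left out and without the block. With a pseudocount of 1, 0 passed, as for all genes. All 10 passed with a pseudocount of 64, among brighter genes, with an intensity trend or with arrays centred on spikes. Elavl4, a neuronal RNA-binding protein, went from 324 ± 79.5 to 1086 ± 262, and Stmn2, a regulator of growing axons, from 239 ± 34.4 to 733 ± 136 (SD, n = 3 each). Their summed intensity was 1801 to 3278 in RA and 5300.1 to 7660 with Ag1.3, and 0 of the 10 lay within the range of the Trp controls. Of 8 pluripotent markers 1 fell, Pou5f1, which maintains pluripotency, from 348 ± 126 to 215 ± 97.6, and 7 were under 0.05 before adjustment. Their median was -0.60. The count that passed as lower was 0 once any 1 pair was left out or without the block, and 7 with a pseudocount of 64, among brighter genes, with an intensity trend or with arrays centred on spikes. Of 9 markers of dividing cells 0 passed in limma, and 0 were under 0.05 before adjustment, while 2 passed as lower with arrays centred on the spikes described below. Their median was -0.11, with Mcm5 and Bub1, of DNA replication and the spindle checkpoint, at -0.18 and -0.16. Though small, the differences ran lower in all 3 pairs for 7 of the 9, against 19.5% of all genes. They ran higher in all 3 for 1, against 17.2%. The part of more neurons or fewer pluripotent cells in the members' values was not tested.

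**Figure D5:**
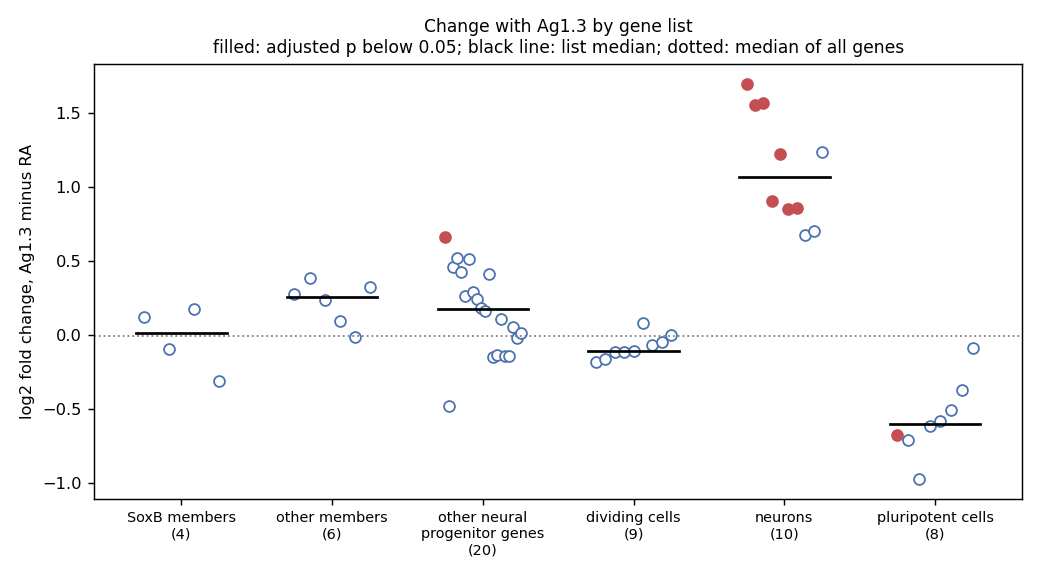
Log2 fold change, Ag1.3 minus RA, of single genes in 6 lists (number of genes in parentheses), with filled red points for adjusted p under 0.05, a black line at each list's median and a dotted line at the median of all genes. The SoxB and other members lie between -0.32 and 0.39 with no filled point, and the neuronal markers all lie at 0.67 or above.

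Relatives of the members in the same gene families differed in places where the members did not pass. Of 14 other intermediate filament genes 3 rose and 1 fell, with a median of -0.05. With arrays centred on spikes the count was 4 higher and 5 lower, and the median -0.25. The 3 were the neuronal filament genes Nefm, from 403 ± 122 to 1332 ± 236, Nefl, from 564 ± 150 to 1668 ± 202, and Ina, from 346 ± 52.5 to 924 ± 220.2 (SD, n = 3 each). They passed whichever pair was left out and without the block, but not with a pseudocount of 1, where 0 of all genes passed. The 1 that fell was Krt8, a keratin of simple epithelia named after its value was seen, from 295 ± 166 to 190.2 ± 123, and it did not pass once any 1 of the pairs was left out (adjusted p of 0.106 to 0.253) or without the block (adjusted p = 0.857).

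Of 15 other Sox genes 0 rose and 1 fell. This was Sox17, a factor of endoderm, from 138 ± 67.3 to 52.0 ± 35.7 (SD, n = 3 each, adjusted p = 0.0158 in limma), which did not pass once any 1 of the pairs was left out (adjusted p of 0.0505 to 0.0796) or without the block (adjusted p = 0.526). The median of this list was -0.04. Among 10 measured genes of fatty acid and retinoid binding proteins other than Fabp7, 0 passed in limma and 4 were under 0.05 before adjustment. On the log2 scale, Fabp3 was at -0.52 (adjusted p = 0.102) and Crabp1, which binds retinoic acid, at 0.38 (adjusted p = 0.142), and the list's median was -0.09. Of 6 other members of the Slc1 transporter family 0 passed in limma and 2 were under 0.05 before adjustment. These were the glutamate transporter Slc1a2, at 0.53 (adjusted p = 0.103), and the neutral amino acid transporter Slc1a5, at -0.26 (adjusted p = 0.285), and the median was -0.01.

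Directions of the small estimates mostly held under quantile normalization and under centring each array on its median, but less so under centring on spikes. With quantile normalization and with median centring the median of the 10 members was 0.15. Only Vim changed sign there, to 0.0037 with quantile normalization. Hybridization spikes, RNAs added in equal amount before hybridization, were brighter on the Ag1.3 arrays by 0.19 (log2). When arrays were centred on these spikes, the median of all genes was -0.20, the median of the 10 members moved from 0.15 to -0.04, and Sox1, Sox3 and Msi1 changed sign. This centring moves every gene by 1 common amount, so the members kept their place among all genes. Slc1a3, Fabp7, Nes and Prom1 stayed above 0 and Sox2 and Sox21 below it in this setting, with Sox21 past the threshold at -0.51 (adjusted p = 0.0055 in limma).

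Over all genes 256 passed, 197 higher and 59 lower with Ag1.3, so 77.0% were higher, and with the spikes 9.80% of 3009 were higher. Correlations across genes between cultures of 1 group were 0.982 to 0.992, where genes are not independent replicates. Signal ratios of the 3' to the 5' end of the actin transcript, which rise as RNA degrades, were 1.46 to 1.51 in RA and 1.33 to 1.63 with Ag1.3.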

How the data were processed

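The authors deposited 1 intensity per probe set and array on a linear scale. RNA was labelled with biotin by the 3' IVT kit, per the labels' protocols, while software, summary method and scaling are not given by the sources used here. Of 45101 probe sets, 64 controls were left out. The platform annotation gave 34945 of the other 45037 a single symbol, 932 several, and did not list 9160. By gene identifier, 34741 matched RefSeq (GRCm38.p6), with 0 symbols changed. For each of the 18193 genes, the probe set brightest on average over the 6 arrays was used.

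Intensities were transformed to log2(intensity + 16), which understates changes of dim genes, and tested two-sided with limma 3.58.1 in R 4.3.3 (lmFit, eBayes) with the pair as a block. The series' design text describes parallel pairs, and deviations from group means correlated at 0.54, 0.19 and 0.56 within pairs against -0.51 to 0.07 across pairs. Deviations cancel out within a group, so positive values within pairs push those across pairs down, and this contrast is partly built in. A second fit covered all probe sets. Means ± SD are of deposited intensities, and SE and intervals are limma's. The script was tested on simulated data. The 14 alternatives, 12 for probe sets, were other pseudocounts (1 and 64), normalizations, moderations, probe set choices, a filter on dim features, no block, and each pair left out.

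The members and lists were chosen with earlier results of these data known. All members and their probe sets were named, with up to 3 genes of smallest adjusted p past the threshold from each other list, or the 2 of smallest p where none passed, and the 3 genes most like the member of smallest p.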

Additional observations from a re-analysis of the deposited data

How the results depend on the processing

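Of the 10 members, 0 passed in limma's test, and 0 in 9 of the 14 alternatives. With a pseudocount of 64, among brighter features, and with trend and robust moderation 2 passed, Sox21 and Slc1a3, and 1, Sox21, passed with an intensity trend and with arrays centred on the spikes. Member probe sets past the threshold numbered 0, 1 among brighter features, and 2 with a pseudocount of 64, the spikes or either moderation. All that passed were probe sets of Sox21. The brightest Slc1a3 probe set passed in 0 of the 12 alternatives for probe sets (lowest adjusted p = 0.057 in limma). Over all genes 256 passed, and 87 in the fit that left the replicate block out. A pseudocount of 1 gave 0 and one of 64 gave 819. There were 952 of the 11441 genes tested among brighter features, and 3009 with the spikes. An intensity trend gave 888, trend and robust moderation 1208, and leaving out 1 of the pairs 40 to 68. The block changed no call of a member, since 0 passed with it and 0 without it. The unadjusted p-values did depend on it. Without the block 1 member, Slc1a3, was under 0.05 before adjustment, against 4 with it. Sox21 then had an unadjusted p of 0.236 in limma. Signs reversed for Vim with quantile normalization (0.0037), averaged probe sets (0.021) and without pair 1 (range -0.050 to 0.021 over left-out pairs). They reversed for Msi1 with the spikes (-0.10), averaged probe sets (-0.052), the probe set of largest variance (-0.16) and without pair 3 (range -0.032 to 0.18). They also reversed for Sox1 with the spikes (-0.072) and without pair 3 (range -0.017 to 0.22), and for Sox3 with the spikes (-0.016). The causes were not tested. Precision is limited by the number of arrays, and probe sets near the Trp controls have no usable order.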

Other observations

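Some markers of other cell classes are not described above. Of 8 mesenchymal markers 1 rose, Dcn, a matrix proteoglycan, with a log2 fold change of 0.50 (adjusted p = 0.0493 in limma), which did not pass once any 1 of the pairs was left out (adjusted p of 0.117 to 0.295) or without the block (adjusted p = 0.709). Among 8 endoderm markers 1 fell, Sox17, and 2 lay within the range of the Trp controls in both groups. Of 6 endothelial, 7 measured glial and 6 neural crest markers 0 passed in limma, and 2, 1 and 2 of them were under 0.05 before adjustment. Kdr was at 0.57 and Pecam1 at -0.37 on the log2 scale, Mbp at 0.41 and Aldh1l1 at -0.12, and Ngfr at 0.47 and Snai2 at -0.48.

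The 3 genes whose log2 levels over the 6 arrays were most like those of Slc1a3, out of 11440 brighter genes, were Cdc42ep5 (Pearson r = 0.990), 4930503E14Rik (r = 0.980) and Phf7 (r = 0.978). The arrays share 3 culture pairs, and with so few points many genes reach such values, so this is a description only. Their adjusted p in limma was 0.272, 0.211 and 0.449.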
